A study of Danio rerio with 3 samples.

Results

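Described here are 10 genes of bile acid synthesis, bile acid transport and the feedback between gut and liver, taken by symbol: 4 known mainly from the liver (cyp7a1, cyp8b1, abcb11a, abcb11b), 3 known from ileum-like enterocytes (slc10a2, fabp6, fgf19), and 3 regulators used in both organs (nr1h4, nr0b2a, nr0b2b). These are 10 of the 32519 gene identifiers in the deposited tables, and each symbol matched 1 identifier and 1 row per table. All 10 reached 1 FPKM (fragments mapped to a transcript, per kilobase of its length and relative to the library's total) in at least 1 library, as did 14061 genes in all. The genes were chosen by role and with their FPKM and ratios in these same 3 libraries known, so all levels and ratios below are descriptions and none is a test.

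The 3 libraries are poly(A) RNA of the intestine of adult zebrafish (Danio rerio) aged 6 to 9 months, with 1 library for each diet. The Fe'i and Cavendish groups ate granules of which 50% was the pulp of that banana and the rest Tetramin, and the control group ate Tetramin, a commercial fish feed, alone. All were fed for 8 weeks, sampled on day 56, and fasted for 24 hours before the intestine was taken, so the libraries describe unfed fish. The labels state neither the strain nor the sex and number of fish per library, nor the part of the intestine taken.

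Bile acids are made from cholesterol in the liver, in a pathway whose rate is set in mammals by the enzyme CYP7A1. They pass with bile into the gut and are taken back by enterocytes of the ileum through the carrier SLC10A2 and the binding protein FABP6. In mammals, bile acids in these cells activate the nuclear receptor FXR (gene nr1h4 in zebrafish), which raises the hormone FGF19 and the corepressor SHP (genes nr0b2a and nr0b2b in zebrafish). FGF19 acts on the liver through the receptor FGFR4 with its partner beta-Klotho, and both FGF19 and SHP lower CYP7A1. Zebrafish secrete mostly a sulfated bile alcohol in place of the bile acids of mammals.

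Values are scaled FPKM, that is, FPKM divided by a factor that sets the median gene of the 3 libraries equal, and the number after ± is the half-width of the deposited 95% interval. That interval covers counting and read assignment within a library and no difference between fish. Genes count as called, higher or lower, where the log2 ratio of scaled FPKM + 1 reaches 1 in size (2-fold), the 95% intervals are apart, and the higher of the 2 libraries is at 1 FPKM or more. Every difference given as a fold is likewise a ratio of levels with 1 added to each. For low genes such a fold is smaller than the ratio of the levels themselves. With 1 library per diet no difference has a replicate check and no p-value was computed. A median measured gene rested on 115 effective fragments (the squared ratio of FPKM to its SD) in the Fe'i, 180 in the Cavendish and 147 in the control library.

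Between diets, 5 of the 10 genes were called in the Fe'i against the control library, 3 higher (abcb11b, slc10a2, fgf19) and 2 lower (cyp7a1, nr0b2b). Among all measured genes, 6.72% were called in that comparison, 4.93% higher and 1.79% lower. Against control, 5 were also called in the Cavendish library, 4 higher (cyp7a1, cyp8b1, abcb11b, slc10a2) and 1 lower (nr0b2b), where 7.31% of all genes were called, 5.66% higher and 1.65% lower. Between the Fe'i and the Cavendish library 4 were called, fabp6 and fgf19 higher and cyp7a1 and cyp8b1 lower in Fe'i, beside 8.71% of all genes, 4.22% higher and 4.49% lower. The 95% intervals were apart, at any fold, for 10 of the 10 genes in Fe'i against control (30.7% of all genes), 7 in Cavendish against control (37.5%) and 8 in Fe'i against Cavendish (35.7%). Since the genes were picked with these values known, the counts cannot be read against those shares. Both comparisons with the control feed use the same control library.

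**Figure D1:**
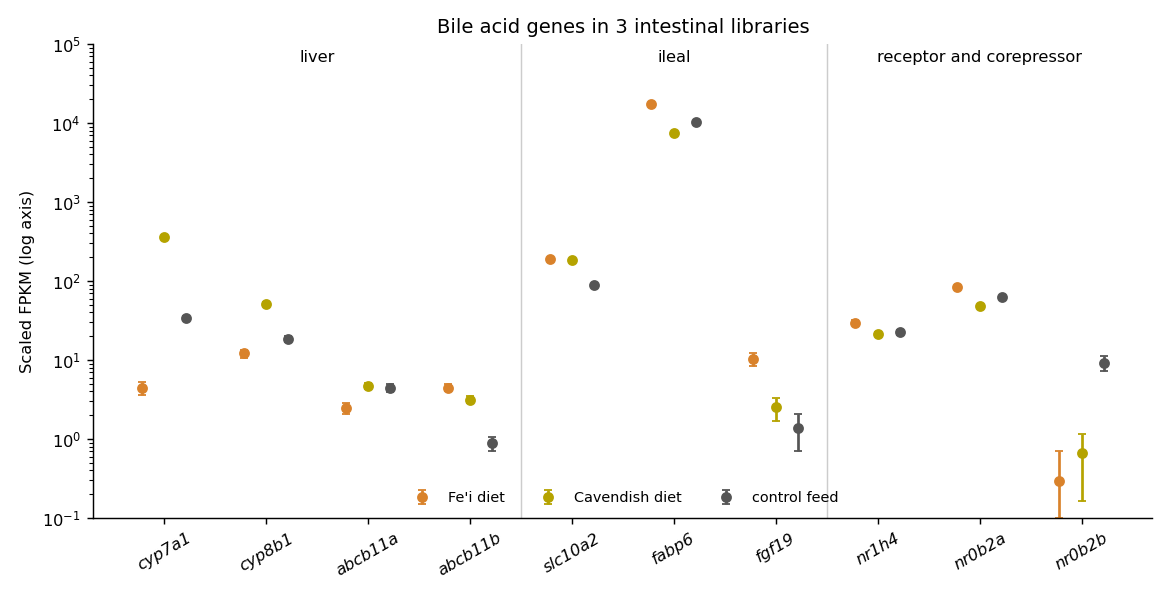
Scaled FPKM (log axis) of the 10 genes in the Fe'i, Cavendish and control libraries, 1 library each; bars are deposited 95% intervals, and the lower bar of nr0b2b in the Fe'i library reaches 0 and is cut at the axis. cyp7a1 spans 4.46 to 364 scaled FPKM, while nr1h4 stays between 21.3 and 29.8.

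Liver transcripts were present in every library, which bears on all the liver genes. All 37 measured liver markers were at 1 FPKM or more in every library, and none was at 0. Their summed level was 22595 scaled FPKM in the Fe'i, 10918 in the Cavendish and 6652 in the control library. Of the 37, 35 were called higher and 0 lower in Fe'i against control (median log2 ratio 1.78, beside 0.01 for all measured genes). In Cavendish against control 13 were called higher and 1, apoc2, lower (median 0.84, beside 0.02 for all measured genes). Among all measured genes, 4.93% were called higher and 1.79% lower in Fe'i, and 5.66% and 1.65% in Cavendish, each against control. fabp10a, the liver fatty acid binding protein, was at 7829 ± 113 scaled FPKM in the Fe'i, 3423 ± 61.0 in the Cavendish and 1073 ± 35.4 in the control library. hpx, ahsg2 and pah, which encode hemopexin, a fetuin and phenylalanine hydroxylase, had log2 ratios of 3.78, 3.09 and 2.45 in Fe'i against control. In bulk RNA, fewer cells of a type and less RNA per cell cannot be told apart. Levels of the liver genes are therefore also given after each library is divided by the geometric mean of these liver markers (liver-scaled FPKM), a scaling that puts the median of all genes at -1.47 in Fe'i against control and -0.63 in Cavendish against control.

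cyp7a1 (ENSDARG00000069018, chromosome 2, 22150134 to 22152797, GRCz11), whose product opens the classic pathway of bile acid synthesis, stood far apart in the 3 libraries. It was at 4.46 ± 0.839 scaled FPKM in the Fe'i, 364 ± 6.14 in the Cavendish and 34.3 ± 2.01 in the control library. The Cavendish library was the highest and the Fe'i library the lowest, and no pair of intervals overlapped. These values rest on 113, 14021 and 1166 effective fragments in the Fe'i, Cavendish and control libraries. The log2 ratio was -2.69 (counting SE 0.12) in Fe'i against control, 3.37 (counting SE 0.04) in Cavendish against control, and -6.06 (counting SE 0.11), 66.8-fold lower, in Fe'i against Cavendish.

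In Fe'i against control, cyp7a1 lay below all 37 liver markers, and in Cavendish against control it lay above all 37. Its level was 2.23 liver-scaled FPKM in the Fe'i, 389.7 in the Cavendish and 63.4 in the control library. On that scale, with 1 added to each level, it was 19.9-fold lower in Fe'i and 6.07-fold higher in Cavendish than in control. Both calls were thus kept, the first as the larger. Among 14061 measured genes it ranked 7572nd from the top in the Fe'i, 322nd in the Cavendish and 2023rd in the control library.

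cyp8b1 (ENSDARG00000053068, chromosome 2, 3435888 to 3437862), a sterol hydroxylase that in mammals sets the share of cholic acid, had the same order of libraries over a narrower range. It was at 12.1 ± 1.4 scaled FPKM in the Fe'i, 51.3 ± 2.28 in the Cavendish and 18.6 ± 1.49 in the control library, with all intervals apart. It was called higher in Cavendish against control (log2 ratio 1.42, counting SE 0.06) and lower in Fe'i against Cavendish (log2 ratio -1.999, counting SE 0.08). In Fe'i against control its log2 ratio was -0.58 (counting SE 0.09), short of the 2-fold threshold. Scaled to liver markers, with 1 added to each level, cyp8b1 was 5.01-fold lower in Fe'i and 1.59-fold higher in Cavendish than in control. The first passed the threshold and the second no longer did. The neighbours cyp8b2 and cyp8b3 stayed under 1 FPKM in every library.

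The balance between these enzymes, both read per length within a library, differed as well. cyp8b1 was at 2.71 times the level of cyp7a1 in the Fe'i library (counting interval 2.17 to 3.38). It was at 0.141 times that level in the Cavendish library (0.134 to 0.148) and at 0.541 times in the control library (0.490 to 0.597). Thus cyp8b1 exceeded cyp7a1 in the Fe'i library only of the 3. This ratio needs no scaling between libraries, since both genes are read in the same one. It does not remove differences in the cells sampled, and which cells carried each gene was not tested.

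**Figure D2:**
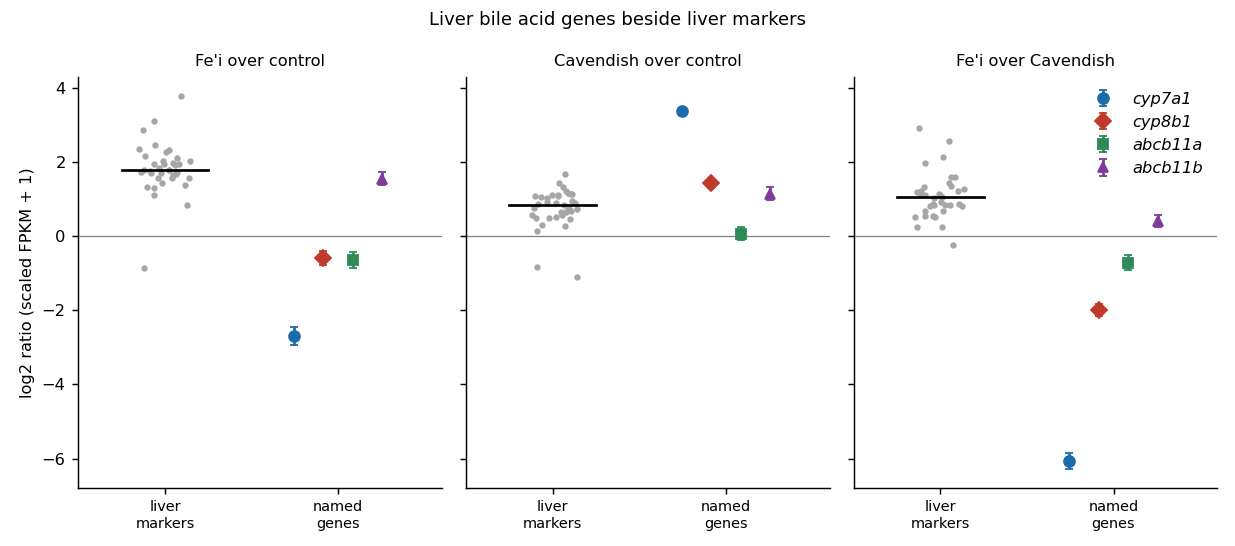
log2 ratio of scaled FPKM + 1 for the 37 measured liver markers (grey points, black line at their median) and for cyp7a1, cyp8b1, abcb11a and abcb11b, in 3 comparisons between single libraries; bars are 2 counting SE. cyp7a1 lies below every liver marker in Fe'i over control and above every one in Cavendish over control, while abcb11b lies among them.

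The bile salt export pump, which in mammals (ABCB11) moves bile salts from hepatocytes into bile, has a pair of zebrafish genes, and they differed in their order across libraries. abcb11b (ENSDARG00000070078, chromosome 11, 13223625 to 13272085) was at 4.47 ± 0.459 scaled FPKM in the Fe'i, 3.15 ± 0.312 in the Cavendish and 0.881 ± 0.166 in the control library. It was highest in Fe'i and lowest in control, with no interval overlapping another. abcb11a (ENSDARG00000011573, chromosome 9, 48755638 to 48817119) was at 2.47 ± 0.403 scaled FPKM in the Fe'i, 4.71 ± 0.464 in the Cavendish and 4.46 ± 0.483 in the control library. Here the Fe'i library was the lowest, and the intervals of the Cavendish and control libraries overlapped.

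abcb11b was called higher in both banana libraries, with log2 ratios of 1.54 (counting SE 0.09) in Fe'i and 1.14 (counting SE 0.08) in Cavendish against control. The liver markers were higher in the same libraries. Scaled to them, abcb11b was at 2.24 liver-scaled FPKM in the Fe'i, 3.37 in the Cavendish and 1.63 in the control library. With 1 added to each level, abcb11b was 1.23-fold higher in Fe'i and 1.66-fold higher in Cavendish than in control. Neither passed the threshold, and at such low levels the added 1 shrinks the fold. Both calls also ended when the pseudocount was raised to 5 or the minimum to 5 FPKM, and the Cavendish call with TPM (log2 ratio 0.99). With a pseudocount of 0.1 both calls stayed, at log2 ratios of 2.22 in Fe'i and 1.73 in Cavendish against control. abcb11a was not called in any comparison; its log2 ratio was -0.65 in Fe'i and 0.06 in Cavendish against control. On the liver scale abcb11a was 4.13-fold lower in Fe'i and 1.53-fold lower in Cavendish than in control. Scaled instead to 18 general enterocyte markers (described below), its log2 ratios were -0.584 in Fe'i and 0.296 in Cavendish against control. Neither passed the threshold. Before such scaling, abcb11a lay below 36 of the 37 liver markers in Fe'i and 35 in Cavendish, each against control. It lay above 3 and 14 of the 18 general enterocyte markers in these comparisons. Which cells carried abcb11a was not tested. abcb11b made up 64.4% of the pair's summed FPKM in the Fe'i, 40.1% in the Cavendish and 16.5% in the control library. Liver marker levels had the same order of libraries, and their part in this share was not tested.

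The ileal genes stand against another background. All 18 measured markers of enterocytes in general were at 1 FPKM or more in every library. Among them is apoa1b, whose log2 ratio in Fe'i against control (1.85) lay near the liver marker median (1.78). Which cells carried apoa1b was not resolved. The 18 markers had a summed level of 22822 scaled FPKM in the Fe'i, 21866 in the Cavendish and 29755 in the control library. Their median log2 ratio was -0.26 in Fe'i and -0.34 in Cavendish against control, with 2 higher and 1 lower called in Fe'i and 1 each way in Cavendish. Markers of lysosome-rich enterocytes, protein-absorbing cells of the posterior gut, summed to 12955 scaled FPKM in the Fe'i, 3102 in the Cavendish and 3977 in the control library. Of those 17 markers, none at 0 in any library, 11 were called higher in Fe'i against control (median 1.24), and 2 lower in Cavendish against control (median -0.25). Among all measured genes, 4.93% were called higher and 1.79% lower in Fe'i against control (median 0.01). In Cavendish against control 5.66% were called higher and 1.65% lower (median 0.02). In Fe'i against Cavendish, 13 of the 17 lysosome-rich markers were called higher and 0 lower (median 1.69). Of all measured genes, 4.22% were called higher and 4.49% lower there (median -0.01). The part of either marker list in the values of the ileal genes was not tested.

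slc10a2 (ENSDARG00000014916, chromosome 9, 27339505 to 27344683), the sodium-dependent carrier that takes bile acids up at the enterocyte surface, was higher in both banana libraries. It was at 190 ± 5.77 scaled FPKM in the Fe'i, 186 ± 4.6 in the Cavendish and 88.4 ± 3.38 in the control library. The Fe'i and Cavendish intervals overlapped and the control library lay below both. Its log2 ratios were 1.09 (counting SE 0.03) in Fe'i and 1.06 (counting SE 0.03) in Cavendish against control. These sit just past the threshold: with the deposited FPKM unscaled they were 0.96 and 0.93, and neither was called. Divided by the geometric mean of the general enterocyte markers, slc10a2 was 2.26-fold higher in Fe'i and 2.54-fold higher in Cavendish than in control. In Cavendish against control it lay above all 18 general and all 17 lysosome-rich enterocyte markers. In Fe'i against control it lay above 16 of the 18 general markers and 6 of the 17 lysosome-rich ones.

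fabp6 (ENSDARG00000044566, chromosome 21, 30043054 to 30047353), the ileal bile acid binding protein of the cytosol, was among the most abundant transcripts of all. It was at 17303 ± 139 scaled FPKM in the Fe'i, 7457 ± 74.2 in the Cavendish and 10271 ± 92.2 in the control library, with all intervals apart. It took 1.77% of all FPKM in the Fe'i library, 0.699% in the Cavendish and 1.16% in the control library. That made it the 3rd most abundant measured gene in the Fe'i, the 16th in the Cavendish and the 10th in the control library. fabp6 was called higher in Fe'i against Cavendish (log2 ratio 1.21, counting SE 0.01). Against control its log2 ratio was 0.75 in Fe'i and -0.46 in Cavendish, neither past 2-fold, although counting error alone is small at this depth. Scaled to general enterocyte markers, these ratios were 0.83 and -0.18. The ratio in Fe'i against Cavendish was then 1.01, still called, but 0.12 and not called with liver scaling. fabp6 lay above 16 of the 18 general and 5 of the 17 lysosome-rich enterocyte markers in Fe'i against control. In Cavendish against control it lay above 7 and 3 of them. In Fe'i against Cavendish, where fabp6 was called, it lay above all 18 general and 5 of the 17 lysosome-rich markers.

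fabp6 and slc10a2, which act one after the other in uptake, did not keep a fixed ratio. fabp6 stood at 91.0 times the level of slc10a2 in the Fe'i library (counting interval 88.2 to 94.0). The ratio was 40.1 in the Cavendish library (39.1 to 41.2) and 116 in the control library (112 to 121). The Cavendish library thus had the lowest ratio, with slc10a2 above and fabp6 below the control level in scaled FPKM.

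fgf19 (ENSDARG00000098663, chromosome 7, 54642005 to 54645564), the hormone that in mammals carries the bile acid signal from gut to liver, was highest in the Fe'i library. It lay above 66.2% of measured genes in the Fe'i, 30.1% in the Cavendish and 19.9% in the control library. It was at 10.4 ± 2.02 scaled FPKM in the Fe'i, 2.52 ± 0.81 in the Cavendish and 1.38 ± 0.676 in the control library. The Fe'i interval lay above the other 2, which overlapped each other. These levels rest on 105, 38.6 and 16.7 effective fragments in the Fe'i, Cavendish and control libraries, so the control value is the least certain. fgf19 was called higher in Fe'i against control (log2 ratio 2.26, counting SE 0.24) and against Cavendish (log2 ratio 1.70, counting SE 0.21), and not in Cavendish against control (log2 ratio 0.56, counting SE 0.26).

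Scaled to general enterocyte markers, fgf19 was at 10.1 FPKM in the Fe'i, 2.81 in the Cavendish and 1.27 in the control library. With 1 added to each level, fgf19 was 4.88-fold higher in Fe'i and 1.68-fold higher in Cavendish than in control. In Fe'i against control, fgf19 lay above all 18 general and all 17 lysosome-rich enterocyte markers. The log2 ratio of fgf19 in that comparison fell inside the range of the liver markers, above 30 of 37. In Fe'i against Cavendish, fgf19 lay above all 18 general but only 9 of the 17 lysosome-rich markers, at the median of the latter (1.69). Scaled to liver markers, fgf19 was at 5.20 FPKM in the Fe'i and 2.56 in the control library. With 1 added to each level that is 1.74-fold higher in Fe'i, short of the threshold, and at such low levels the added 1 shrinks the fold. On that scale the call of fgf19 in Fe'i against Cavendish was lost as well (log2 ratio 0.75). Which cells carried fgf19 was not resolved in these bulk libraries. Set against cyp7a1 within a library, cyp7a1 was at 0.429 times the level of fgf19 in Fe'i (counting interval 0.327 to 0.563), at 145 times in Cavendish (105 to 200) and at 24.8 times in control (15.2 to 40.6). These genes are known from different organs, and liver marker levels differed between the libraries. Organ content and expression therefore cannot be told apart in this ratio, and the counting intervals do not cover organ content. A link between the genes was not tested.

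**Figure D3:**
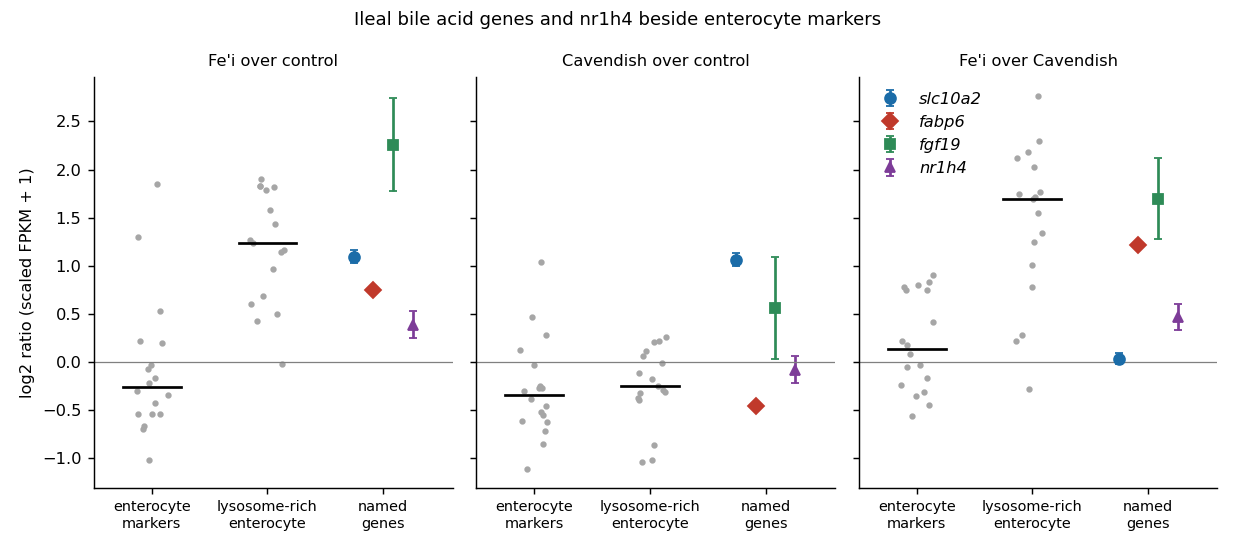
log2 ratio of scaled FPKM + 1 for 18 general and 17 lysosome-rich enterocyte markers (grey points, black lines at medians) and for slc10a2, fabp6, fgf19 and nr1h4, in 3 comparisons between single libraries; bars are 2 counting SE. fgf19 stands highest of the 4 genes in Fe'i over control and slc10a2 highest in Cavendish over control, while nr1h4 stays within 0.47 of 0.

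Among the regulators, nr1h4 (ENSDARG00000057741, chromosome 18, 15644559 to 15666942), the bile acid receptor FXR, had the narrowest span of the 10 in scaled FPKM. Its highest level was 1.4 times its lowest. It was at 29.8 ± 2.15 scaled FPKM in the Fe'i, 21.3 ± 1.46 in the Cavendish and 22.6 ± 1.61 in the control library. The Fe'i library was the highest, and the Cavendish and control intervals overlapped. Its log2 ratio was 0.39 (counting SE 0.07) in Fe'i and -0.08 (counting SE 0.07) in Cavendish against control. On this scale it was not called in any comparison. Scaled to liver markers, nr1h4 was at 14.9 FPKM in the Fe'i, 22.8 in the Cavendish and 41.7 in the control library. There it was called lower in Fe'i against control (log2 ratio -1.42) and not in Cavendish (-0.84). Scaled to general enterocyte markers its log2 ratios were 0.46 and 0.19, neither called. Which cells carried nr1h4 was not tested.

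The corepressor SHP is encoded by a pair of genes that differed in level and in order across the libraries. nr0b2a (ENSDARG00000044685, chromosome 16, 54875530 to 54880550) was at 83.2 ± 2.85 scaled FPKM in the Fe'i, 48.2 ± 1.73 in the Cavendish and 62.7 ± 2.13 in the control library. Its intervals were all apart, with Fe'i highest and Cavendish lowest, but its log2 ratios against control, 0.40 in Fe'i and -0.37 in Cavendish, were under 2-fold. Scaled to liver markers, nr0b2a was called lower in both, with log2 ratios of -1.45 in Fe'i and -1.15 in Cavendish against control. Scaled to general enterocyte markers the ratios were 0.48 and -0.095, neither called. nr0b2b (ENSDARG00000102756, chromosome 19, 14153486 to 14155781) was at 0.293 ± 0.415 scaled FPKM in the Fe'i, 0.664 ± 0.502 in the Cavendish and 9.22 ± 2.01 in the control library. The control library was the highest by far, and the Fe'i and Cavendish intervals overlapped.

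nr0b2b was called lower in both banana libraries, with log2 ratios of -2.98 (counting SE 0.27) in Fe'i and -2.62 (counting SE 0.26) in Cavendish against control. It rests on 1.99 effective fragments in the Fe'i, 7.00 in the Cavendish and 84.0 in the control library. The Fe'i interval reaches 0, so its level has no lower limit other than 0. As plain ratios on these fragments taken as whole counts, nr0b2b stood at 0.0318 times the control level in Fe'i (exact Clopper-Pearson 95% counting interval 0.00379 to 0.119) and at 0.0720 times in Cavendish (0.0281 to 0.155). nr0b2b made up 0.351% of the pair's summed FPKM in the Fe'i, 1.36% in the Cavendish and 12.8% in the control library. The summed level of the pair was 83.5 scaled FPKM in the Fe'i, 48.8 in the Cavendish and 71.9 in the control library, so in every library nr0b2a carried most of it.

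**Figure D4:**
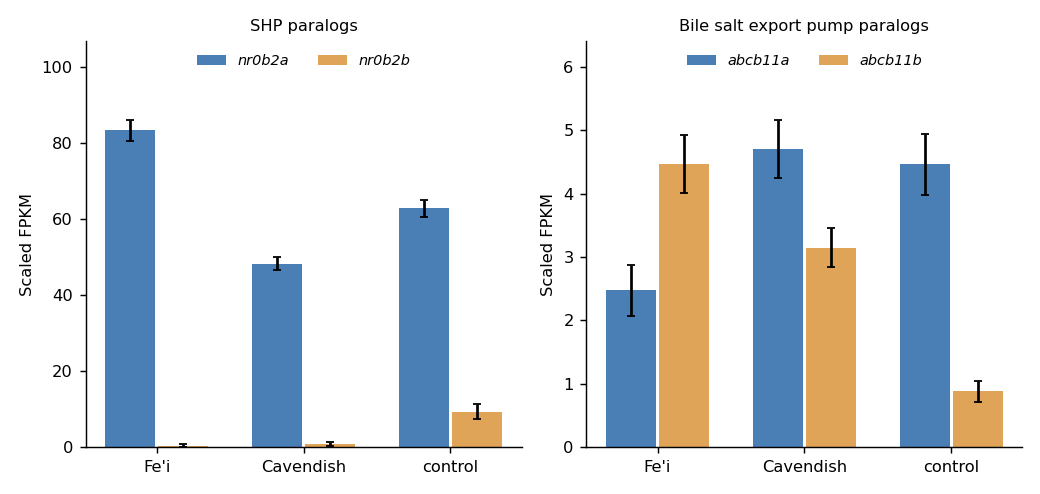
Scaled FPKM of nr0b2a and nr0b2b (left) and of abcb11a and abcb11b (right) in the Fe'i, Cavendish and control libraries, 1 library each; bars start at 0 and error bars are deposited 95% intervals. nr0b2b is near 0 in both banana libraries, and abcb11b exceeds abcb11a in the Fe'i library.

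Of 23 measured further genes of bile acid synthesis, 0 were called in Fe'i against control (median log2 ratio -0.06, where 6.72% of all measured genes were called), and 2 were called higher and 0 lower in Cavendish against control (median -0.01, where 5.66% of all measured genes were called higher and 1.65% lower). The 2 were cyp39a1, an oxysterol hydroxylase of an alternative route to bile acids, and ch25h, a cholesterol hydroxylase. cyp39a1 was at 3.79 ± 0.717 scaled FPKM in the Fe'i, 25.6 ± 1.49 in the Cavendish and 3.69 ± 0.609 in the control library, so it was highest in the library where cyp7a1 was highest. ch25h was at 3.17 ± 1.01, 4.58 ± 0.977 and 1.47 ± 0.588 scaled FPKM in the Fe'i, Cavendish and control libraries. The ch25h call in Cavendish against control was lost with TPM, with liver scaling and with a pseudocount of 5, while that of cyp39a1 stayed. sult2st2, a sulfotransferase, was at 74.2 ± 5.13 scaled FPKM in the Fe'i, 149.7 ± 5.79 in the Cavendish and 148 ± 6.19 in the control library. It was called lower in Fe'i against Cavendish (log2 ratio -1.003), a call lost in both TPM settings and with a pseudocount of 5. In Fe'i against control it missed the threshold (log2 ratio -0.989). It was called lower there with unscaled FPKM (-1.12) and in both TPM settings (-1.13 over all genes, -1.05 once pancreas and mitochondrial genes were left out), so the count of 0 rests on the scaling; with a pseudocount of 0.1 the count was 2 higher, ch25h and cyp27a1.2. scp2a, a sterol carrier protein, had a log2 ratio of 0.91 in Fe'i and -0.000279 in Cavendish against control, and cyp46a1.4, a cholesterol hydroxylase, of -0.41 and -0.94; neither was called, though cyp46a1.4 was called lower in Cavendish with unscaled FPKM (-1.06).

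Of 12 further transport genes measured, 2 were called higher and 1 lower in Fe'i against control (median 0.01, beside 4.93% higher and 1.79% lower of all measured genes). In Cavendish against control 1 was called higher and 0 lower (median 0.01, beside 5.66% and 1.65% of all measured genes). slc51a, a subunit of the exporter that passes bile acids from the enterocyte to the blood, was at 43.5 ± 3.47 scaled FPKM in the Fe'i, 34.6 ± 2.55 in the Cavendish and 16.4 ± 1.73 in the control library. It was called higher in both banana libraries, with log2 ratios of 1.35 in Fe'i and 1.03 in Cavendish against control. The Cavendish value sits just past the threshold and was not called with unscaled FPKM (0.90), TPM (0.77) or a pseudocount of 5 (0.88). Nor was it called with TPM without pancreas and mitochondrial genes or with liver scaling. slco1d1, an organic anion uptake carrier, was called higher in Fe'i, at 24.8 ± 1.87 scaled FPKM against 11.3 ± 0.963 in Cavendish and 8.43 ± 0.867 in control. abcg5, a subunit of the sterol exporter, was called lower in Fe'i, at 17.9 ± 1.67 scaled FPKM against 22.1 ± 1.61 in Cavendish and 42.7 ± 2.66 in control. In Cavendish against control its log2 ratio was -0.92, and it was called lower there with unscaled FPKM (-1.05). The organic anion exporter abcc4 was not called, with log2 ratios of 0.42 in Fe'i and -0.16 in Cavendish against control. slc10a1, the bile acid uptake carrier of the liver in mammals, was under 1 FPKM in every library.

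Of 19 further regulators measured, 2 were called higher in Fe'i against control (median 0.08, beside 4.93% of all measured genes) and 1 higher in Cavendish against control (median -0.06, beside 5.66%), with 0 lower in both. prox1a, a transcription factor of hepatocytes among other cells, was at 5.69 ± 0.816 scaled FPKM in the Fe'i, 1.42 ± 0.322 in the Cavendish and 1.37 ± 0.341 in the control library. foxa2, a transcription factor of gut and liver, was at 7.26 ± 1.14, 3.26 ± 0.614 and 2.31 ± 0.564 scaled FPKM in the Fe'i, Cavendish and control libraries. With a pseudocount of 5 neither prox1a (log2 ratio 0.75 in Fe'i against control) nor foxa2 (0.75) was called. Liver markers were also higher in the Fe'i library, and their part in these values was not tested. fgf21, a hormone of the same family as fgf19, was called higher in Cavendish, at 8.03 ± 1.95 scaled FPKM against 3.40 ± 1.34 in control, with 6.53 ± 2.17 in Fe'i. Its log2 ratio in Cavendish against control was 1.04, and it was not called with unscaled FPKM (0.93), TPM (0.82) or a pseudocount of 5 (0.63). Nor was fgf21 called with TPM without pancreas and mitochondrial genes or with liver scaling. hnf4b, a nuclear receptor of gut and liver, had log2 ratios of -0.77 and -0.71 in Fe'i and Cavendish against control. fgfr4 and klb, the receptor for FGF19 and its partner, had log2 ratios of 0.08 and -0.05 in Fe'i and -0.53 and -0.25 in Cavendish against control, and neither was called.

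**Figure D5:**
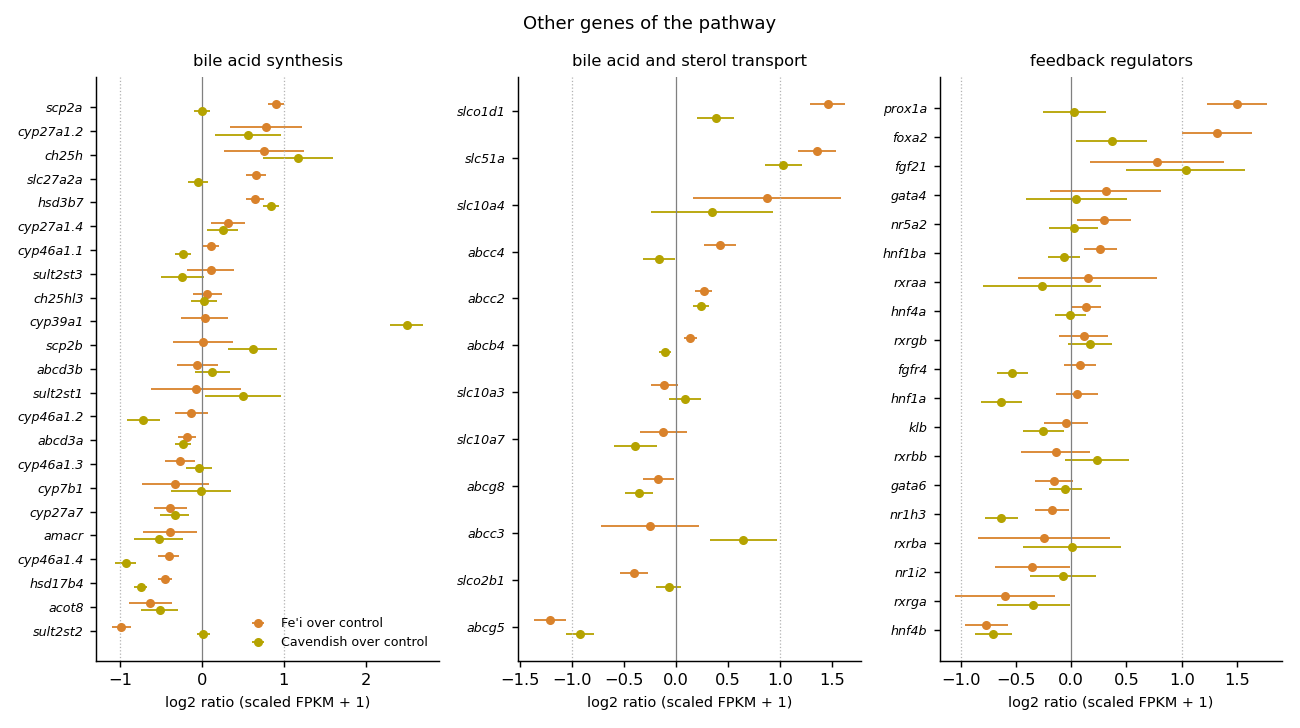
log2 ratio of scaled FPKM + 1 in Fe'i over control and Cavendish over control for the measured further genes of bile acid synthesis (23), bile acid and sterol transport (12) and feedback regulation (19), 1 library per diet; bars are 2 counting SE and dotted lines mark 2-fold. cyp39a1 stands out at 2.50 in Cavendish over control, and slc51a lies past 2-fold in Fe'i over control and at the 2-fold line, at 1.03, in Cavendish over control.

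For 4 of the genes, the genes most like them were sought by the distance between pairs of log2 ratios (Fe'i and Cavendish, each against control), over 3 libraries only and 6781 other named genes at 5 scaled FPKM or more. Nearest to cyp7a1 were crp7, a C-reactive protein gene (distance 0.81), an hp gene for haptoglobin on chromosome 7 (1.15) and cst14b.2, a cystatin (1.75). crp7 was at 0.287 ± 0.538 scaled FPKM in the Fe'i, 56.7 ± 5.2 in the Cavendish and 3.83 ± 1.32 in the control library, so its Fe'i interval reaches 0. That of hp, at 0.497 ± 0.603 scaled FPKM in the Fe'i library, reaches 0 as well. In Fe'i against control cst14b.2 had a log2 ratio of -0.95, short of the threshold, beside -2.69 for cyp7a1. Nearest to nr0b2b were traj39, a T cell receptor segment (0.29), apoa4a, an apolipoprotein (0.30), and pvalb9, a parvalbumin (0.33). traj39 was at 0.00851 ± 2.08 scaled FPKM in the Fe'i, 0.00297 ± 1.32 in the Cavendish and 5.62 ± 2.50 in the control library, and its log2 ratios against control carry counting SEs of 1.51 in Fe'i and 0.99 in Cavendish, so its place in that order is not resolved. apoa4a was at 108 ± 7.66 scaled FPKM in the Fe'i, 106 ± 6.58 in the Cavendish and 709 ± 32.3 in the control library. Nearest to fgf19 were cbln8 (0.12), ttr (0.12), a plasma hormone carrier that is on the liver marker list, and sec14l7 (0.15). Nearest to slc10a2 were AMDHD1, of histidine breakdown (0.01), tmigd1, an epithelial membrane protein (0.08), and cyp2x9, a cytochrome P450 (0.09). tmigd1 was at 129.6 ± 7.71 scaled FPKM in the Fe'i, 134 ± 6.85 in the Cavendish and 63.6 ± 4.31 in the control library.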

How the data were processed

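The libraries were read as pairs of 150 bases, per the labels. The submitters' processing notes name FastQC 0.11.5, TopHat2 2.1.0 and the build GRCz11. Per the file headers, the authors deposited FPKM in the gene table format of Cufflinks, each value with a 95% interval and a status; which Cufflinks version and options were used is not stated in those sources. Each file holds 32661 rows. Rows sharing an identifier (117 identifiers, none of the 10 genes) were summed, and 9 identifiers whose status was not OK were left out. Locus starts were moved to 1-based counting. Each library was divided by its median ratio to the gene-wise geometric mean, taken over genes reaching 1 FPKM in every library (0.965 for Fe'i, 0.969 for Cavendish, 1.06 for control). Ratios use a pseudocount of 1, which understates the change of low genes; the counting SE comes from the intervals, taken as 2 SD wide on each side. Intervals and SEs stand for counting and read assignment within a library only. PCR copies are not independent molecules, and where they were counted both are too narrow even for counting error.

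The 10 genes and the 10 gene lists were chosen with earlier results of these data known. Named genes are the 10, from each list the 4 genes at 5 scaled FPKM or more that moved farthest from control, and the 3 genes most like cyp7a1, nr0b2b, fgf19 and slc10a2. Outside this rule ch25h, cyp27a1.2, cyp8b2, cyp8b3, slc10a1, fgfr4, klb and apoc2 were named after their values were seen. The call rule was tested on simulated libraries that held counting error only. That test does not bear on differences between fish or in the organs sampled. Python 3.11.15, numpy 2.4.6, pandas 2.3.3, scipy 1.17.1 (exact interval of nr0b2b) and matplotlib 3.10.9 were used.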

Additional observations from a re-analysis of the deposited data

How the results depend on the processing

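The number of the 10 genes called stayed within 1.5 times of that reported (5 in Fe'i and 5 in Cavendish against control, 4 in Fe'i against Cavendish) in 35 of 39 alternative counts. The exceptions were TPM, which left 3 in Cavendish against control (2 higher, 1 lower, beside 4 and 1), and a 4-fold threshold, which left 3 in Fe'i and 2 in Cavendish against control and 1 in Fe'i against Cavendish. Outside the liver and enterocyte scalings, the log2 ratio of cyp7a1 ranged from -2.92 to -2.06 in Fe'i and from 3.10 to 3.40 in Cavendish against control, and that of fgf19 from 1.27 to 2.82 in Fe'i against control. Against control, the slc10a2 calls were lost in both diets with unscaled FPKM and TPM, and in Cavendish with TPM without pancreas and mitochondrial genes.

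Scaling to liver markers set 7 genes lower and 0 higher in Fe'i against control, beside 2 lower and 3 higher as reported, 3 lower and 1 higher in Cavendish against control, and 4 lower and 0 higher in Fe'i against Cavendish. It divides every gene by the liver level, which was highest in Fe'i, and among all genes left 89 called higher and 10384 lower in Fe'i against control, beside 693 and 252 as reported, and 289 and 2597 in Cavendish against control. Of the genes named in the text, 12 called higher in Fe'i against control had ratios below 0: slc10a2 (-0.77), slco1d1 (-0.30), slc51a (-0.46), foxa2 (-0.18), apoa1b (-0.034), mep1a.2 (-0.55), ctsbb (-0.051), amn (-0.015), hbba1 (-0.12), AMDHD1 (-0.35), tmigd1 (-0.85) and cyp2x9 (-0.61). Among all genes in Cavendish against control, 796 were called higher and 232 lower, but 650 and 322 with unscaled FPKM, 517 and 451 with TPM (744 and 362 if pancreas and mitochondrial genes are left out of it), and 1208 and 129 with enterocyte scaling. The median of all genes was -0.19 with TPM and 0.25 with enterocyte scaling. Depth limits nr0b2b in the banana libraries and fgf19 in the control library. No paired analysis was possible because each diet has 1 library.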

Other observations

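Transcripts of other organs differed between these libraries beside the liver. Exocrine pancreas markers, which encode digestive enzymes, summed to 48565 scaled FPKM in the Fe'i, 148328 in the Cavendish and 51671 in the control library. Of 17 measured, 14 were called higher in Cavendish against control (median log2 ratio 1.58) and 0 in Fe'i against control (median -0.09). Among all measured genes, 5.66% and 4.93% were called higher in these comparisons. The amylase amy2a was at 598 ± 24.5 scaled FPKM in the Fe'i, 2769 ± 115 in the Cavendish and 503 ± 20.1 in the control library. Log2 ratios of cpa1, ela2 and cel.2 in Cavendish against control were 2.02, 1.96 and 1.85. Thus the library with the highest cyp7a1 was also the one with the most pancreatic transcripts, and their part in the bile acid genes was not tested.

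Egg markers summed to 79.6 scaled FPKM in the Fe'i, 4.13 in the Cavendish and 6.95 in the control library. All 18 were under 1 FPKM in the Cavendish library and 15 in the control library, so the 11 that reached 1 FPKM in some library mostly did so in Fe'i alone. Among them zp2.3, an egg envelope gene, was at 14.9 ± 1.96 scaled FPKM in the Fe'i, 0.200 ± 0.179 in the Cavendish and 0.741 ± 0.371 in the control library. In Fe'i against control zp2.2, zp3a.1 and zp3a.2, of the same envelope, had log2 ratios of 2.48, 2.55 and 3.13. Erythrocyte markers summed to 672 scaled FPKM in the Fe'i, 443 in the Cavendish and 185 in the control library, led by hbaa1 and hbba1. Log2 ratios of the hemoglobin genes hbaa2 and hbba2 against control were 2.48 and 2.61 in Fe'i and 1.59 and 1.99 in Cavendish.

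Bile duct markers, of which 6 were measured, had 0 called in any comparison. Among all measured genes 6.72% were called in Fe'i against control, 7.31% in Cavendish against control and 8.71% in Fe'i against Cavendish. A list of 6 is too short to be read against those shares. tm4sf4 was at 968 ± 42.2 scaled FPKM in the Fe'i, 961 ± 40.9 in the Cavendish and 975 ± 41.8 in the control library. anxa4 was at 530 ± 23.7 scaled FPKM in the Fe'i, 341 ± 12.7 in the Cavendish and 283 ± 11.3 in the control library. alcama and hnf1bb, on the same list, were only at 8.12 and 5.98 scaled FPKM in the Fe'i library. Which cells carried tm4sf4 and anxa4 was not tested, so their levels cannot be read as those of bile duct. alcama and hnf1bb had log2 ratios of 0.996 and -0.04 in Fe'i against control, the first just short of 2-fold. On the list of general enterocyte markers, fabp2 and chia.2 had log2 ratios of -0.70 and -1.02 in Fe'i against control, and mep1a.2 and apoa1b of 1.3 and 1.85. The values of mep1a.2 and apoa1b lay far above the median of that list (-0.26), and that of apoa1b lay near the liver marker median (1.78). Which cells carried apoa1b was not resolved. The lysosome-rich enterocyte genes cubn, amn, ctsbb and ctsl.1 had log2 ratios of 1.82, 1.83, 1.83 and 1.90 in Fe'i against control. In Cavendish against control they were 0.06, -0.29, 0.11 and -0.87.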
